A study of Mus musculus with 21 samples.

Results

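The mitochondrial ribosomal proteins are the nuclear-encoded protein subunits of the ribosome inside mitochondria. The family was taken as every row of the deposited count table with a plain Mrpl or Mrps symbol, that is, the stem, a number and at most 1 letter. This gave 78 genes of 48474 rows, and all 78 were among the 18248 genes that passed the filter on low counts. Rows that carry a suffix for a further copy (8 rows) or for a pseudogene (6 rows) were left out of the family and are described apart.

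The data are bulk mRNA sequencing of the neocortex from 21 mice, 10 labelled TG and 11 labelled WT, in 2 independent cohorts. The labels and the methods give cortex as the tissue, whereas a figure legend of the study names the hippocampus for rNLS8 mice in the same numbers, and the labels were followed here. Cohort A held 3 TG and 4 WT mice, and cohort B held 7 of each. TG mice were rNLS8 mice, which carry both NEFH-tTA (line 8) and tetO-hTDP-43ΔNLS (line 4), so that human TDP-43 without its nuclear localization signal is made from a neurofilament heavy chain promoter when doxycycline is withdrawn. WT mice were littermates with only 1 of the transgenes. Every mouse of both groups was injected into the cerebral ventricles at 17 to 19 weeks of age with 350 µg of an antisense oligonucleotide that has no target, given in 10 µL. Every mouse was kept on chow with 200 mg/kg doxycycline until 2 weeks after the injection and then on chow without it for 3 weeks. This promoter is active chiefly in neurons and in a few oligodendrocytes, so most other cells of the tissue should carry no transgene product. Per the study, rNLS8 mice were analysed without separating the sexes, and the labels give no sex for any mouse.

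Mitochondria translate their own small set of messages, which code for core subunits of the respiratory chain and of ATP synthase. Their ribosome has a small subunit, which reads the message, and a large subunit, which forms peptide bonds and delivers the chain to the inner membrane. The ribosomal RNAs come from mitochondrial DNA, whereas all ribosomal proteins are coded in the nucleus, made in the cytosol and imported. Some of them descend from bacterial ribosomal proteins and others have no bacterial counterpart.

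Total counts per mouse ranged from 20700912 to 22263809, with medians of 21076278 in WT and 21451125 in TG mice. Members were measured at a mean of 152.6 to 1240 counts per mouse, and the lowest count of any member in any mouse was 116. Tardbp counts, which can hold reads of the mouse gene and of the human transgene alike, were 2253 to 2827 in WT mice, and 9 of 10 TG mice lay above the highest WT mouse. The exception was the library labelled TG with the mouse name T61340 (cohort A), at 2363. This library also stood apart in the family, as the highest of the 10 TG libraries in 54 of 78 members. The family counts, the cohort comparison and some single members are therefore given below with and without it. The counts over classes of members, other gene lists and neighbour pairs are given only with it. Summed neuronal markers were lower in every TG mouse (107300 to 133200 normalized counts) than in any WT mouse (143500 to 175900), and 5 of 8 fell. Of 7 microglial markers, 5 rose and 1 fell, with sums of 7809 to 11470 in TG and 7412 to 8542 in WT mice. Of 7 astrocyte markers, 1 rose and 5 fell (sums 94040 to 118600 and 106000 to 133300), or 1 and 2 with scaling by library size alone, whereas none of 6 oligodendrocyte markers was called (87510 to 155600 and 91420 to 153700). Of 5 markers of neocortical projection neurons, 1 rose and 1 fell (1 and none with library size alone), of 4 endothelial markers 2 fell (none with library size alone), of 3 striatal markers 1 fell (likewise none), and none of 2 markers of oligodendrocyte precursors and 2 of choroid plexus was called. The choroid plexus sum varied most among mice, from 278 to 45270 in WT and from 499.9 to 23350 in TG mice. Among all genes tested, 23% were higher and 21.7% lower, or 32% and 15.1% with library size alone. No marker of any of these lists was at 0 in all mice. In bulk tissue, fewer cells of a type and less RNA per cell cannot be told apart, and the part of the cell markers in the results below was not tested.

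The comparison asks how the family differs between TG and WT mice. It changed in both directions and by small amounts. At an adjusted p under 0.05 in the quasi-likelihood test of edgeR, adjusted for cohort, 23 members were higher in TG mice (29.5%), 13 were lower (16.7%) and 42 were not called. Among all genes tested, 44.7% were called, 23% higher and 21.7% lower, and among the members 46.2%. The shares of the family were thus near those of all genes. Scaling by library size alone, in place of TMM, moved the split to 31 higher and 6 lower, where 32% of all genes were higher and 15.1% lower. The median log2 fold change of the members was 0.04, against -0.0007 over all genes tested, and the values ran from -0.46 for Mrpl16 to 0.45 for Mrpl22. The median absolute log2 fold change was 0.107 in the family and 0.178 over all genes. None of the members passed an absolute value of 1, which 344 called genes did. The genes tested also hold rows with far lower counts than the members, and no comparison was made at like counts. The standard error of a member's log2 fold change was 0.036 to 0.084. The 42 members without a call lay between -0.14 and 0.11.

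**Figure D1:**
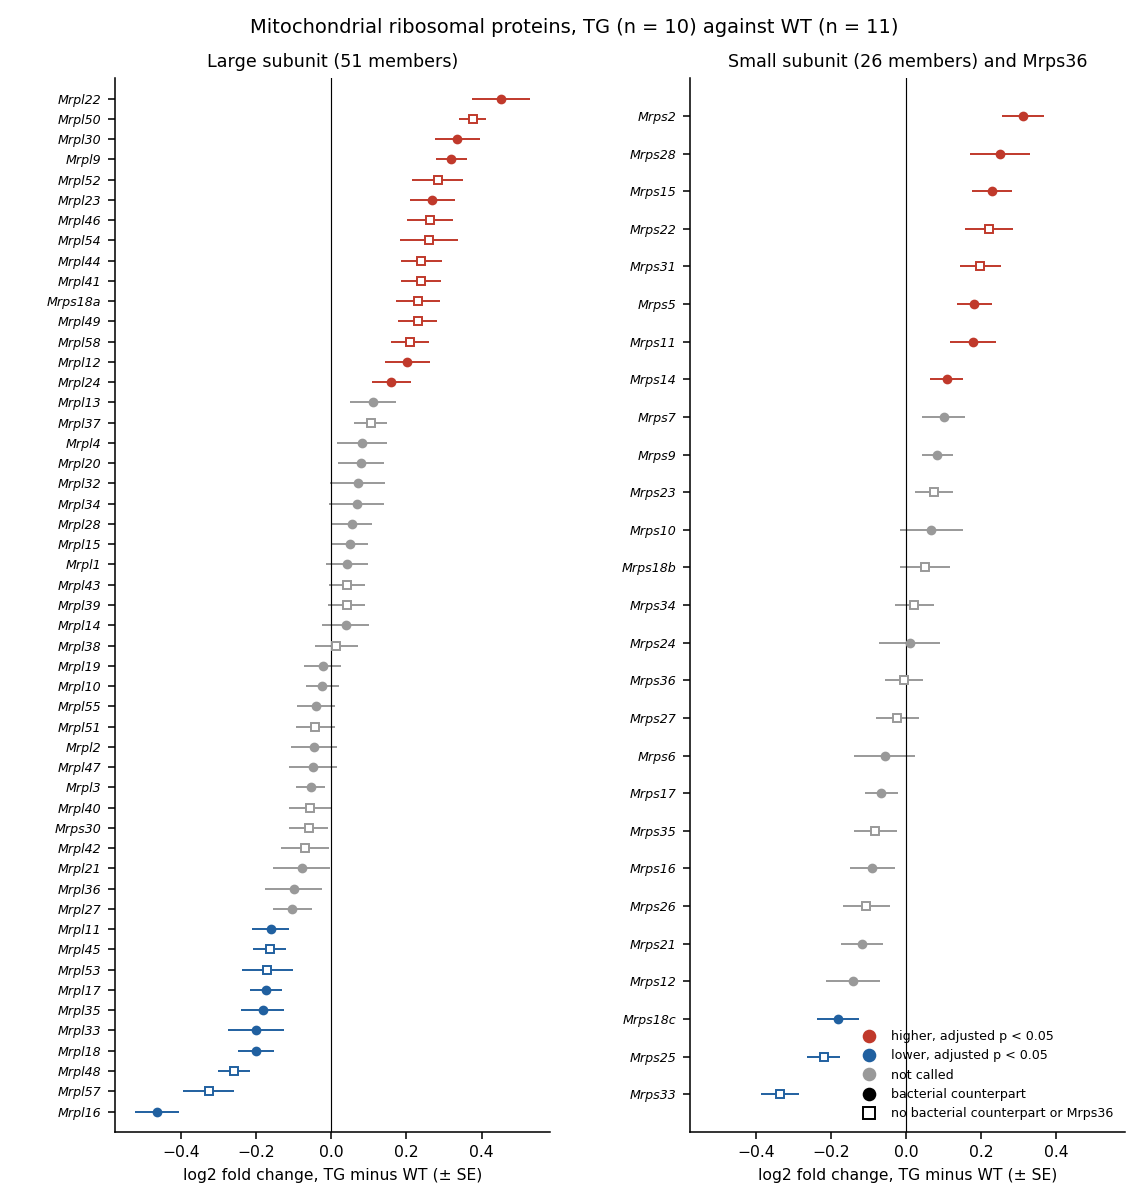
Log2 fold change of each of the 78 mitochondrial ribosomal proteins, TG minus WT, with its standard error, for the large subunit (left) and the small subunit with Mrps36 (right). Red marks the 23 members called higher, blue the 13 called lower and grey the 42 not called; filled circles have a bacterial counterpart and open squares have none.

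Without T61340, the same 23 members were called higher and the same 13 lower, and 3 more were called lower, which made 16. Over all genes the shares were then 23.3% higher and 22.4% lower. The added members were Mrps26 (-0.17), Mrps21 (-0.16) and Mrpl27 (-0.14), small- and large-subunit proteins. The median of the family moved from 0.04 to 0.003, so that its small positive value rested on this library. Without both T61340 and T60303, another TG mouse of cohort A, 20 members were called higher and 15 lower, where 21.4% and 20.3% of all genes were, and Mrpl24, Mrpl35, Mrps11 and Mrps14 were no longer called (adjusted p from 0.0591 to 0.109, edgeR).

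Mrpl16, a bacterial-type protein of the large subunit close to the peptidyl transferase centre, fell furthest. Its normalized counts were 391 to 496 in WT mice (median 439) and 273 to 382 in TG mice (median 303). All 10 TG mice were below the lowest WT mouse. By the fit adjusted for cohort, Mrpl16 fell by 27.5%, a log2 fold change of -0.46 ± 0.06 (SE, adjusted p = 6.91e-07, edgeR). The gene lies on chromosome 19 from 11770415 to 11774956 in GRCm38.p6.

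Mrps33, a protein of the small-subunit head, had 545 to 769 normalized counts in WT mice (median 648) and 447 to 549 in TG mice (median 523). In 9 of 10 TG mice it was below the lowest WT mouse (log2 fold change -0.34 ± 0.05, adjusted p = 6.30e-06). Mrpl57, a mitochondria-particular protein of the large subunit, had 377 to 557 counts in WT mice (median 402) and 284 to 404 in TG mice (median 334). The groups overlapped in 2 TG mice (log2 fold change -0.33 ± 0.07, adjusted p = 0.000367). Mrpl48, of the central protuberance, the crest on the large subunit where it faces the small one, had 1247 to 1518 counts in WT mice (median 1320) and 1015 to 1318 in TG mice (median 1116). In 9 of 10 TG mice the count was below the lowest WT value, and the exception was T61340 (log2 fold change -0.26 ± 0.04, adjusted p = 2.62e-05).

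The other 9 lower members changed less. Mrps25 (small subunit) was at -0.22 and Mrpl18 (central protuberance) at -0.20. Mrpl33 and Mrpl35, small bacterial-type proteins of the large subunit, were at -0.20 and -0.18, and Mrps18c, the bacterial-type S18 of the small subunit, was at -0.18. Mrpl17, at the exit tunnel, was at -0.17 and lay below the lowest WT mouse in 8 of 10 TG mice. Mrpl53 was at -0.17 and Mrpl45, which sits at the tunnel exit and tethers the ribosome to the inner membrane, at -0.16. Mrpl11, at the base of the stalk that recruits translation factors, was at -0.16 and was below every WT mouse in 9 of 10 TG mice. The call of Mrpl53 (adjusted p = 0.0451) was lost in 14 of the 21 fits that leave out 1 mouse and that of Mrpl33 (adjusted p = 0.0318) in 7 of 21.

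In the other direction, Mrpl50, a mitochondria-particular protein of the large subunit, was the most clearly separated member. Its normalized counts were 589 to 701 in WT mice (median 648) and 803 to 873 in TG mice (median 845). Every TG mouse was above every WT mouse, and the TG values spread little. By the fit adjusted for cohort, Mrpl50 was 29.8% higher (log2 fold change 0.38 ± 0.04, adjusted p = 7.905e-09, edgeR). Mrpl50 lies on chromosome 4 from 49512597 to 49521083.

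Mrpl9, a bacterial-type protein of the large subunit, had 637 to 739 normalized counts in WT mice (median 688) and 766 to 1005 in TG mice (median 850). The groups did not overlap here either (log2 fold change 0.32 ± 0.04, adjusted p = 9.68e-07). Mrpl9 lies on chromosome 3 from 94443154 to 94448708. Mrpl16, Mrpl50 and Mrpl9 were the 3 members (3.85%) whose TG and WT mice did not overlap, against 7.65% of all genes tested.

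Mrpl22, which lines the exit tunnel of the large subunit, had the largest increase. It had 150 to 228 normalized counts in WT mice (median 201) and 222 to 330 in TG mice (median 269). In 9 of 10 TG mice it was above the highest WT mouse (log2 fold change 0.45 ± 0.08, adjusted p = 3.85e-05). The table holds a further row for this gene, at 0.29 (adjusted p = 0.137), and with the 2 rows added together the log2 fold change was 0.39 (adjusted p = 0.000945). The size for Mrpl22 is therefore uncertain, since reads may have been split between near-identical copies. Mrpl30, a bacterial-type protein of the large subunit, had 663 to 852 counts in WT mice (median 735) and 778 to 1169 in TG mice (median 936). Of the TG mice, 8 of 10 were above the highest WT mouse (0.34 ± 0.06, adjusted p = 6.62e-05). Mrps2, a bacterial-type protein of the small subunit, had 464 to 606 counts in WT mice (median 552) and 579 to 778 in TG mice (median 669). It was above all WT mice in 9 of 10 TG mice (0.31 ± 0.06, adjusted p = 6.63e-05).

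**Figure D2:**
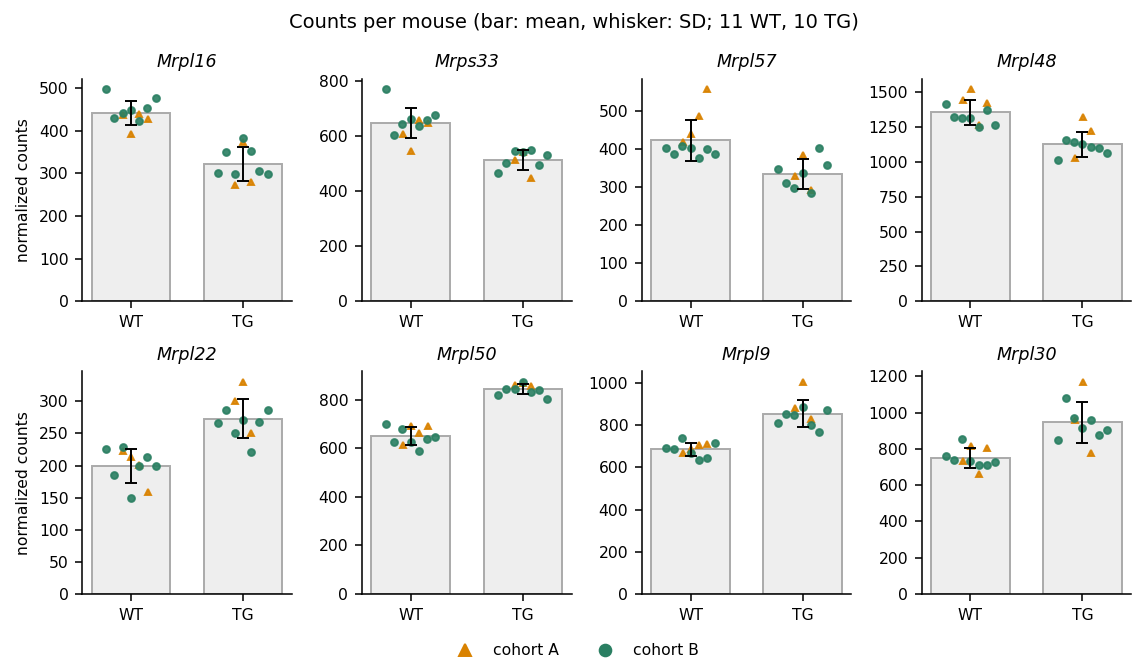
Normalized counts per mouse of 4 members that fell (upper row) and 4 that rose (lower row) in TG mice, with triangles for cohort A and circles for cohort B; bars are group means and whiskers SD over 11 WT and 10 TG mice. The groups do not overlap for Mrpl16, Mrpl50 and Mrpl9, and for the others 8 or 9 of 10 TG mice lie beyond the WT range.

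The remaining 18 higher members lay between 0.11 and 0.28 on the log2 scale. In the large subunit these were Mrpl52 (0.28), Mrpl23 (0.27), which stands at the exit tunnel, Mrpl46 (0.26), of the central protuberance, and Mrpl54 (0.26). Mrpl44, which has a ribonuclease III fold, was at 0.24, as was Mrpl41. Mrps18a, named for the small subunit but placed in the large one in mammals, was at 0.23, and so was Mrpl49. Mrpl58, a peptidyl-tRNA hydrolase built into the large subunit, was at 0.21, and Mrpl12, the stalk protein that also binds mitochondrial RNA polymerase, at 0.20. Mrpl24, of the exit tunnel, was at 0.16. In the small subunit, Mrps28 was at 0.25, Mrps15 at 0.23, Mrps22 at 0.22, Mrps31 at 0.20, Mrps5 and Mrps11 at 0.18 and Mrps14 at 0.11. The call of Mrps14 (adjusted p = 0.0454) was lost in 12 of the 21 fits that leave out 1 mouse.

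The 42 members without a call were 26 of the large subunit, 15 of the small subunit and Mrps36. Closest to the threshold was Mrpl37, a mitochondria-particular protein of the large subunit, with 579 to 682 normalized counts in WT mice (median 620) and 611 to 793 in TG mice (median 657). Its groups overlapped, with 3 of 10 TG mice above the highest WT mouse (log2 fold change 0.11 ± 0.04, adjusted p = 0.0554). Without T61340 its value was 0.07. The lowest value without a call was that of Mrps12, of the decoding centre, at -0.14 ± 0.07 (adjusted p = 0.118), and the highest that of Mrpl13, a bacterial-type protein of the large subunit, at 0.11 ± 0.06 (adjusted p = 0.156, and 0.07 without T61340). Mrps12 had 414 to 671 counts in WT mice (median 508) and 361 to 607 in TG mice (median 464), and 2 of 10 TG mice lay below the WT range. Mrps7, of the head of the small subunit, had 622 to 732 counts in WT mice (median 668) and 612 to 910 in TG mice (median 727). The TG mice lay on both sides of the WT range, 5 above and 2 below. Its difference of 0.10 ± 0.06 on the log2 scale did not pass the test (adjusted p = 0.168) and was 0.04 without T61340.

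The promoters of the members without overlap, and of the pair Mrps11 and Mrpl46, which are transcribed away from each other from neighbouring starts, are shown to let the start regions of members that fell and rose be compared. Sequences are from RefSeq (GRCm38.p6), 5′ to 3′ on the strand of the gene, from 250 bases before to 50 bases after the listed start. Capitals mark a match, on either strand, to the core letters of NRF1 (GCGCATGC), of ETS factors (CCGGAAGT), of YY1 (AAGATGGC) or of the TATA box (TATAAA). The windows are chr19:11770165-11770464 (+) for Mrpl16, chr4:49521034-49521333 (-) for Mrpl50, chr3:94443086-94443385 (+) for Mrpl9, chr7:78782881-78783180 (+) for Mrps11 and chr7:78783040-78783339 (-) for Mrpl46.
Mrpl16: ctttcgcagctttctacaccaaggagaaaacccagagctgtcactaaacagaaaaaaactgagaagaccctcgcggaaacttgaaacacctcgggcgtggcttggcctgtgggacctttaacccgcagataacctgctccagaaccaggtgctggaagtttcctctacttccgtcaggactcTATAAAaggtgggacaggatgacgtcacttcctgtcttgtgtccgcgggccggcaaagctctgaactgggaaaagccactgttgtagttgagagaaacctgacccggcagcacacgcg
Mrpl50: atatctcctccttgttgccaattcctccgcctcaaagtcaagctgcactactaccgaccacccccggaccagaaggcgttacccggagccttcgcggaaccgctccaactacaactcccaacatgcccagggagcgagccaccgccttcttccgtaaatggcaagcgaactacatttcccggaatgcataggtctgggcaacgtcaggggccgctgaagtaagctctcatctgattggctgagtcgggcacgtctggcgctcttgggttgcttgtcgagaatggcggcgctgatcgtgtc
Mrpl9: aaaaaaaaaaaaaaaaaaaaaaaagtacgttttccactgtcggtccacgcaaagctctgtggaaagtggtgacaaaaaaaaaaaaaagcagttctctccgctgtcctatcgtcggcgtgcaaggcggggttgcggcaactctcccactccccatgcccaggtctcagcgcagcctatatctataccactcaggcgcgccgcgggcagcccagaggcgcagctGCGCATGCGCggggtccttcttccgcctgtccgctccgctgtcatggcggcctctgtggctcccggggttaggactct
Mrps11: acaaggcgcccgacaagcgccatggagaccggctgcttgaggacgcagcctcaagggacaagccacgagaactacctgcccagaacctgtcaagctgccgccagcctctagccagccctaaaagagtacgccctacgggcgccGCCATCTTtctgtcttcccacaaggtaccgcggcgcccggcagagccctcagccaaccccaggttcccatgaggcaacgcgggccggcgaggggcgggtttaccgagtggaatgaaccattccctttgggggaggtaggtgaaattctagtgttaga
Mrpl46: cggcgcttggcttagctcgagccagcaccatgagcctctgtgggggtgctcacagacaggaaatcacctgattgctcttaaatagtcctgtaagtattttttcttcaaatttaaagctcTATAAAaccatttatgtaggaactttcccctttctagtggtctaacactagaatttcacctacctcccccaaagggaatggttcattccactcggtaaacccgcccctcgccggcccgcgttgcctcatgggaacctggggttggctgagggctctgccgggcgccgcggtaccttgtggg

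The window of Mrpl16, the member that fell most, held the TATA letters with their first base at position -68 from the start and no match to the other letters. Mrpl50 held no match to any of them, and Mrpl9 held overlapping NRF1 matches on both strands at -28 and -26. The start used for the Mrpl9 window lies inside the gene span given above, so these positions do not count from the first base of that span. The windows of Mrps11 and Mrpl46 shared 141 bases, and the YY1 match of Mrps11 at -107 lay outside the shared stretch. A window was listed for 69 of the 78 members. Of these, 28 (40.6%) held at least 1 match to the NRF1, ETS or YY1 letters, against 9.15% of 27025 promoters of the same length in the table. By motif, NRF1 letters were in 8 members (11.6%, against 2.80%), ETS letters in 11 (15.9%, against 4.0%) and YY1 letters in 12 (17.4%, against 2.88%). TATA letters were in 4 members (5.80%, against 14.2%). Matches stood in promoters of all 3 classes of members: 7 of 21 higher, 5 of 13 lower and 16 of 35 not called held NRF1, ETS or YY1 letters. A match is a description of the letters in the window and no evidence of binding.

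Both subunits held members in both directions, where 23% of all genes tested rose and 21.7% fell. Of 51 large-subunit proteins, 15 rose (29.4%) and 10 fell (19.6%), with a median log2 fold change of 0.04. Of 26 small-subunit proteins, 8 rose (30.8%) and 3 fell (11.5%), with a median of 0.04 as well. Mrps36, which was named for the small subunit and is now known as a part of the 2-oxoglutarate dehydrogenase complex, was placed in neither and was at -0.01 (adjusted p = 0.943). Of 46 members with a bacterial counterpart, 12 rose (26.1%) and 7 fell (15.2%). Of 31 without one, 11 rose (35.5%) and 6 fell (19.4%), and the median was 0.04 in each class. With scaling by library size alone the counts were 20 higher and 4 lower in the large subunit, 11 and 2 in the small subunit, 17 and 2 with a bacterial counterpart and 14 and 4 without one, with medians of 0.11 to 0.12. With that scaling, 32% of all genes tested were higher and 15.1% lower. No test was made between these classes.

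Of the 3 proteins of the L7/L12 stalk, Mrpl12 rose, Mrpl11 fell and Mrpl10 was not called (-0.02). Of 8 proteins of the central protuberance, Mrpl46 and Mrpl58 rose and Mrpl48 and Mrpl18 fell. Around the exit tunnel, Mrpl22, Mrpl23 and Mrpl24 rose, Mrpl17 and Mrpl45 fell, and Mrpl47 (-0.05) was not called. In the small-subunit head, Mrps31 and Mrps14 rose and Mrps33 fell, whereas 4 other proteins were not called. With library size alone, Mrpl11, Mrpl17 and Mrpl45 lost their calls, so that no protein of the stalk or the exit tunnel was called lower.

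Levels per length differed more between members than between genotypes. Per kilobase of exon, WT means ran over 15.5-fold, with a median of 301 normalized counts. The highest were Mrps21 (926), Mrpl27 (913) and Mrpl42 (875), which are small proteins of the 2 subunits. The lowest were Mrpl17 (59.6), Mrps35 (59.8) and Mrpl1 (60.4). These values rest on annotated exon length, which counts every exon of every listed transcript. Members had a median length of 1380.5 bases, against 3140 over all genes tested. Across the 78 members, the log2 fold change had a Spearman correlation of -0.193 with this length and of 0.245 with GC content, given as descriptions since members share the libraries.

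The cohorts were compared because they are separate sets of mice. In cohort B alone, 20 members were called higher and 13 lower, where 19.3% and 19.8% of all genes were, and 32 of these 33 were also called over both cohorts. In cohort A alone, 4 were called higher and none lower, where 11.8% of all genes were called in either direction. These were Mrpl22, Mrpl50, Mrpl9 and Mrpl41, which were also called in cohort B. Without T61340, cohort A, then with 2 TG and 4 WT mice, gave 5 calls, where 10.5% of all genes were called. Mrpl50 (0.39) and Mrpl9 (0.32) were higher, and Mrpl16 (-0.59), Mrpl57 (-0.59) and Mrps12 (-0.42), a protein of the decoding centre, were lower. The log2 fold changes had the same sign in both cohorts for 64 of 78 members and for all 36 called over both. Their Pearson correlation across the 78 members was 0.876 and Spearman's was 0.872, and 0.835 and 0.832 without T61340. The called members were chosen with both cohorts in the fit, so their shared sign is not independent of the calls.

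The test of the difference itself found no member whose change differed between cohorts. In edgeR's interaction test, 0 of 78 members and 0% of all genes were called, 0 members had an unadjusted p under 0.05 (1030 of all genes had), and DESeq2 called 0 members as well, also with 0 members at an unadjusted p under 0.05. The lowest p was that of Mrpl41 (0.0605), followed by Mrpl57 (0.0648) and Mrpl51 (0.115), with differences of 0.21, -0.26 and 0.17 between cohort A and cohort B. Per mouse, the median log2 difference of the 78 members from the WT mean was -0.07 to 0.08 in WT mice. It was -0.11 to 0.10 in 9 TG mice and 0.27 in T61340. Apart from T61340, TG mice thus lay on both sides of the WT mean.

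**Figure D3:**
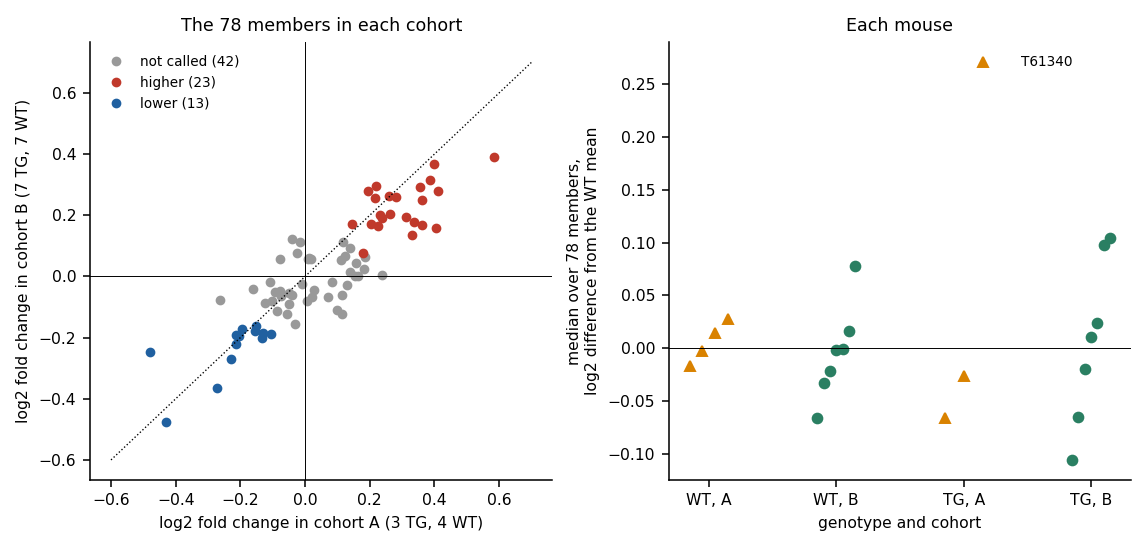
Left, log2 fold change (TG minus WT) of each of the 78 members in cohort A against cohort B, coloured by the call over both cohorts, with a dotted line of equality; all 36 called members have the same sign in both. Right, the median over the 78 members of the log2 difference from the WT mean, 1 point per mouse, where the library labelled TG T61340 stands at 0.27 and all others between -0.11 and 0.10.

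The other parts of mitochondrial translation were read from lists of genes by function. Beside their counts, 23% of all genes tested were higher and 21.7% lower, or 32% and 15.1% with library size alone. Of 5 further proteins of the ribosome with other names, Aurkaip1 (0.33, adjusted p = 1.42e-05) and Ptcd3 (0.16), both of the small subunit, rose and Chchd1 (-0.36, adjusted p = 4.69e-05), also of the small subunit, fell. Of 29 genes for assembly of the ribosome and modification of its RNA, 10 rose and 1 fell (median 0.11), against 16 and 1 with scaling by library size alone (median 0.18). Mrm1, which methylates the large ribosomal RNA, had the largest increase, from 273 ± 21.4 normalized counts (SD, n = 11) to 462 ± 59.6 (SD, n = 10), a log2 fold change of 0.76 (adjusted p = 2.22e-09, edgeR). Rpusd4, a pseudouridine synthase (0.49), Rcc1l (0.38) and Trmt61b, a methyltransferase (0.36), followed. Nsun4, which modifies ribosomal RNA and takes part in joining the subunits, fell (-0.30, adjusted p = 0.000122).

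Of 17 translation factors tested, 4 rose (23.5%) and 5 fell (29.4%), where 23% and 21.7% of all genes tested did. Their median was 0.06, and the split turned to 6 and 3 with scaling by library size alone. Oxa1l, which inserts new chains into the inner membrane (0.25), and Mtif3, an initiation factor (0.23), rose. Taco1, an activator of translation of the COX1 message (-0.31), and Pdf, which removes formyl groups from new chains (-0.23), fell. Of 22 genes for charging mitochondrial tRNAs, 6 rose (27.3%) and 3 fell (13.6%), with a median of 0.02. With library size alone, 7 rose and 2 fell. The shares of both lists were near those of all genes tested. Nars2 (0.47), Gatc (0.36) and Kars (0.32) were among the tRNA charging genes that rose, and Qrsl1 (-0.30) among those that fell. Kars and Gars also serve the cytosol. Of 13 genes for mitochondrial transcription and its regulators, 6 rose and 1 fell (median 0.12). With library size alone, 8 rose and 0 fell. Tfb2m, a transcription factor of mitochondrial DNA, rose from 394 ± 25.5 to 590 ± 42.2 normalized counts (SD, n = 11 and 10; log2 fold change 0.58, adjusted p = 5.77e-10, edgeR). The coactivators Ppargc1b (0.36) and Pprc1 (0.33) and the transcription factor Yy1 (0.34) rose as well.

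Of 15 genes of mitochondrial DNA, 6 fell, 1 rose and 8 were not called, with a median of -0.16. With scaling by library size alone, 4 fell and 2 rose. Of all genes tested, 21.7% fell and 23% rose, or 15.1% and 32% with library size alone. ND6 (-0.51), ND2 (-0.32) and ND4 (-0.26), subunits of complex I, and ATP8 (-0.29), of ATP synthase, fell, and the large ribosomal RNA mt-Rnr2 rose (0.19). The call of ATP8 (adjusted p = 0.0303) was lost in 6 of the 21 fits that leave out 1 mouse. Of 80 nuclear genes for subunits of the respiratory chain and ATP synthase, 37 fell and 5 rose (median -0.12), which became 27 and 12 with scaling by library size alone (median -0.04). Of 88 cytosolic ribosomal protein genes tested, 77 rose and none fell (median 0.37), and with library size alone 80 rose and none fell. Beside these stand 23 higher and 13 lower of the 78 mitochondrial ribosomal proteins, or 31 and 6 with library size alone, and no test was made between the families.

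**Figure D4:**
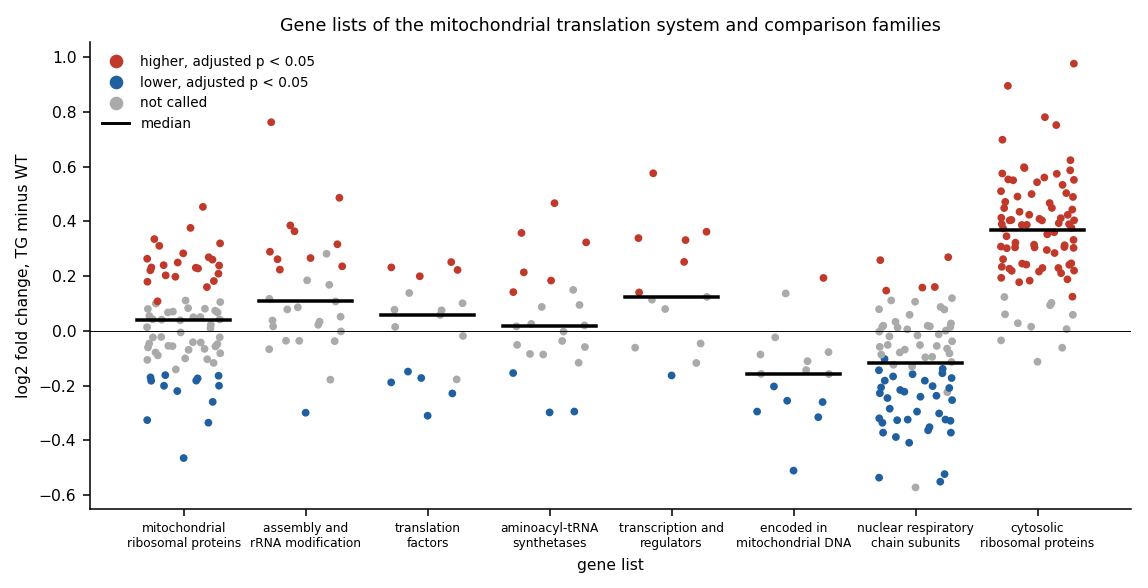
Log2 fold change (TG minus WT) of each gene tested in 8 gene lists, coloured by call, with the median as a bar. The members of the mitochondrial ribosome spread on both sides of 0 around a median of 0.04, the cytosolic ribosomal proteins lie mostly above (median 0.37), and the nuclear respiratory chain subunits lie mostly below (median -0.12).

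Many members stand head to head with another gene. A protein-coding neighbour on the opposite strand, with its start within 1000 bases, was found for 33 of 78 members (42.3%), against 14.6% of 14178 tested coding genes. The neighbour was tested for 29 pairs, counted once each. In 23 of the 29 (79.3%), the member and its neighbour changed with the same sign, which was so for 49.0% of 908 such pairs outside the family. This was given as a description, with no test. The Spearman correlation between the pair's log2 fold changes was 0.56 across the 29 pairs. It was 0.494 across the 22 pairs where the gene with the longest exon overlap with the member, if any, was not the neighbour. Shorter overlaps with the neighbour were not checked.

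For the members that rose, 8 pairs could be read, and in 7 of them the neighbour rose too, and in none did it fall. Outside the family, the neighbour of a gene that rose also rose in 27.8% of 490 cases. The pairs were Mrpl49 with Fau (0.55), a cytosolic ribosomal protein gene, Mrpl41 with Pnpla7 (0.41), Mrpl44 with Wdfy1 (0.40), Mrps5 with Zfp661 (0.23), Mrpl50 with Zfp189 (0.22), Mrpl54 with Apba3 (0.22) and the members Mrpl46 and Mrps11 with each other. Mitd1, next to Mrpl30, was at 0.27 (adjusted p = 0.0544). The call of Zfp189 (adjusted p = 0.0411) was lost in 12 of the 21 fits that leave out 1 mouse. For the members that fell, 4 pairs could be read, and outside the family the neighbour of a gene that fell also fell in 24.2% of 347 cases and rose in 23.3%. Rab6a (-0.35), next to Mrpl48, and Tcp1 (-0.27), next to Mrpl18, fell, whereas Ska3 (-0.30, adjusted p = 0.17), next to Mrpl57, and Helq (0.15, adjusted p = 0.337), next to Mrps18c, were not called. Both Rab6a and Tcp1 share exon bases with their member, 403 and 17.

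Among 17 uncalled members with a tested neighbour, 9 neighbours rose and 1 fell, where 23% of all genes tested were higher and 21.7% lower. Hira, a histone chaperone gene whose start is 175 bases from that of Mrpl40, rose by 0.56 on the log2 scale, while Mrpl40 itself was at -0.06. Ndufs6, of complex I, fell (-0.36), while Mrpl36 was at -0.10.

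**Figure D5:**
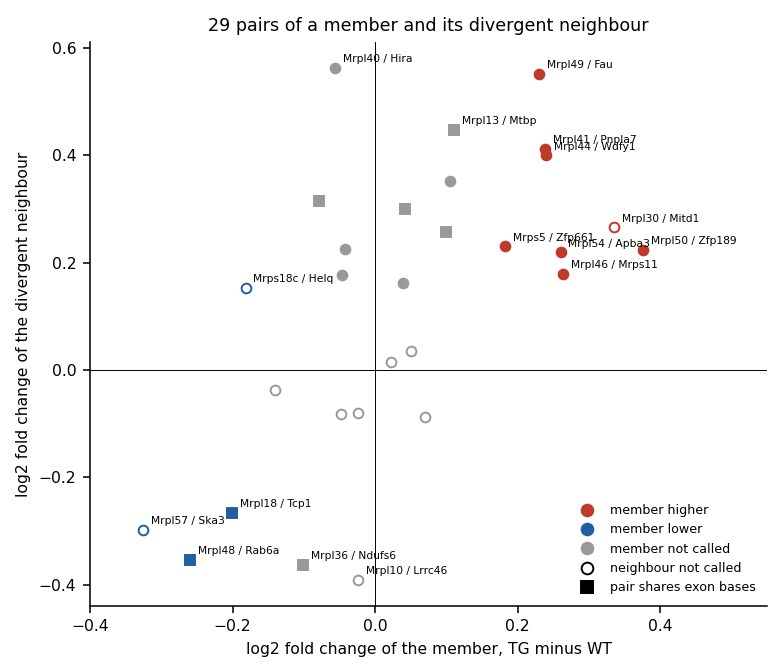
Log2 fold change (TG minus WT) of 29 members against that of the protein-coding gene that starts within 1000 bases on the opposite strand. Red, blue and grey mark members called higher, lower or not called, and open symbols a neighbour that was not called. Squares mark pairs where the neighbour is the gene with the longest exon overlap with the member. In 23 of the 29 pairs the sign is the same.

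Some member counts may hold reads of another gene. By GENCODE M21, 26 members share exon bases with a second gene. The gene with the longest shared stretch was on the opposite strand for 21 of them and on the same strand for 5. Whether the counting used strand was not given in the sources used here, and strand would not separate genes on the same strand. Reads of such pairs then cannot be told apart with certainty. Among the members called, this concerned 5 that rose and 6 that fell. The longest shared stretch among these was 3533 bases, of Mrps25 with Nr2c2, followed by 695 bases of Mrpl53 with Gm42688, 594 of Mrpl24 with Rrnad1 and 403 of Mrpl48 with Rab6a. The 695 bases are the whole exon length of Mrpl53, and Gm42688 is a protein-coding gene on the same strand. Mrpl9 shares 157 bases with Oaz3. Mrpl16, Mrpl50, Mrpl22, Mrps33, Mrpl57, Mrpl30 and Mrps2 share none.

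Of the 14 rows of further copies and pseudogenes, 2 were called. Mrps23-3 fell (-0.51, adjusted p = 0.0107), while its parent Mrps23 was not called, and Mrpl48-ps fell like its parent (-0.27, adjusted p = 0.00695). Mrps36-ps3 had no count in any mouse. With the copies added to their parent, 23 members were called higher and 12 lower, where 22.9% and 21.9% of all genes were, and Mrpl53 lost its call (adjusted p = 0.0506).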

How the data were processed

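The authors deposited 1 table of whole-number counts per gene for the 21 neocortex libraries (paired-end mRNA sequencing, aligned to GRCm38 per the methods). The submitters' processing notes name HISAT, HISAT2, Bowtie, Bowtie2 and RSEM and the build mm10. The annotation, the counter, its strand setting and the role of each tool are not given in the sources used here. Groups and cohorts follow the labels, and each library is 1 mouse.

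Genes were kept by edgeR's filterByExpr by genotype (at least 10 counts, total 15), scaled by TMM and tested with glmQLFit and glmQLFTest (edgeR 4.0.16, limma 3.58.1, R 4.3.3), in a design of cohort plus genotype, and p-values were adjusted by Benjamini-Hochberg over all genes tested. The study's methods name DESeq2, which was run as an alternative (1.42.0), since edgeR is the main test here. Normalized counts are counts divided by the TMM-scaled library size relative to its mean. The standard error is the absolute log2 fold change divided by the square root of F. The main edgeR fit, DESeq2 with cohort, the edgeR interaction fit and the edgeR fit of cohort A alone were run on simulated counts. The other fits were not.

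The members and lists were chosen with earlier results of these data known. Named genes were the up to 10 largest changes in each direction among called members with a mean of at least 50 counts, all members called in the rarer direction, the 3 highest and 3 lowest per length, those without overlap between groups, the 3 lowest interaction p-values, and up to 4 called genes of each other list. The rest of the called members, Mrps36, other members without a call, the added calls without T61340 and the neighbours were named after their values were seen. Alternatives changed the tool, scaling, filter, cohort term, cohorts, copy rows and mice used, and 3 were added after the data were seen: copies summed, T61340 and T60303 left out, and cohort A without T61340. Positions are from RefSeq (GRCm38.p6) and neighbours from GENCODE M21. p-values measure the spread between mice. The study's methods give few litters for rNLS8 mice, and the labels name none.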

Additional observations from a re-analysis of the deposited data

Results flagged for a closer look

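Among 53 named members and 2 summary values of the family, a single TG library stood far from the other 9 in 13 cases, where chance flags about 1 in 20 groups. That rate is no fair reference here, since some of these members were named after their values were seen, a few of them for their change without T61340, and values of 1 library are not independent. Over all 78 members, 16 had such a library, T61340 in 15 of them. In 12 of the 13 cases the library was T61340, which was above the other TG libraries. Its summed normalized counts over the 78 members were 45600, against 35940 to 40850 in the others. It had 1131 counts of Mrpl10 (others 794 to 929), 738 of Mrpl11 (others 541 to 614), 803 of Mrpl27 (574 to 665), 793 of Mrpl37 (611 to 707), 1027 of Mrpl49 (677 to 862), 346 of Mrpl52 (252 to 285), 1005 of Mrpl9 (766 to 885), 838 of Mrps23 (595 to 692), 707 of Mrps26 (464 to 575), 910 of Mrps7 (612 to 764) and 394 of Mrps36 (327 to 347). In the same library the sum of the nuclear respiratory chain and ATP synthase genes was 216600 (other TG libraries 167100 to 191600, WT 190000 to 214100). That of the cytosolic ribosomal proteins was 378500 (other TG libraries 277600 to 380900, WT 234600 to 276100). The Tardbp count of T61340 lay within the range of WT mice, at 2363. Its neuronal marker sum of 128400, in contrast, was within that of the other TG mice (107300 to 133200). The other case was T61342, with 172 counts of Mrps35 (others 231 to 258).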

How the results depend on the processing

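Beside 23 higher and 13 lower, the counts were 23 and 13 with DESeq2 with and without cohort, 31 and 6 with scaling by library size only (32% and 15.1% of all genes), 4 and 0 in cohort A alone and 2 and 3 in cohort A without T61340. Leaving out each mouse gave 22 to 24 higher and 11 to 16 lower members, a median log2 fold change of 0.003 to 0.05, and 0 to 0 interaction calls. The median was -0.052 in cohort A without T61340, 0.12 by library size, and 0.004 in cohort B alone. Library size alone raised the median of all genes by 0.08 and ended the calls of 7 lower members (Mrpl11, Mrpl17, Mrpl33, Mrpl35, Mrpl45, Mrpl53 and Mrps18c). With edgeR, without filter or without cohort as a covariate, Mrpl33, Mrpl53 and Mrps14 lost their call. No called member changed sign in any fit except Mrps28, at -0.030 in cohort A without T61340 (adjusted p = 0.923). Of the 42 members without a call, 26 changed sign under at least 1 alternative, with overlap 14 by library size, 11 in cohort A, 3 in cohort B, 13 in cohort A without T61340 and 4 without T61340 and T60303. Those named here were Mrpl1 (-0.0066), Mrpl13 (-0.038) and Mrps7 (-0.026) in cohort A without T61340, Mrpl40 (0.021), Mrpl42 (0.0071) and Mrpl47 (0.027) by library size, Mrpl10 (0.052 by library size, 0.027 in cohort A), Mrpl51 (0.033 by library size, 0.099 in cohort A) and Mrps36, at 0.070 by library size, 0.008 without filter, 0.11 in cohort A, 0.0062 with Xist as a covariate, 0.031 in cohort A without T61340, positive in 6 of the 21 fits without 1 mouse and from -0.035 to 0.0135 over them. Why these values moved was not tested. No paired analysis was possible because the mice of both groups carry separate names. Cohort A, with 3 TG mice, limits what can be called there, and the sources give neither the strand of the counting nor the litter or sex of each mouse.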
